A study of Homo sapiens with 18 samples.

Results

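The 49 genes described here encode the proteins that mark and open the origins of DNA replication, copy DNA at the fork and supply it with nucleotides and histones. The members were chosen by name, and all 49 symbols matched 1 Ensembl identifier each among the 62703 genes counted. All 49 passed the filter on low counts in every line, and the lowest count of any member in any library was 507. RNA-seq was available for 18 libraries of total RNA from AMO1, H929 and LP1, which are established human multiple myeloma cell lines and therefore cultures of malignant plasma cells. In each line, 3 libraries are labelled gN1E, for a gapmeR against the long non-coding RNA NEAT1, and 3 are labelled SCR, for a scrambled gapmeR. A gapmeR is a modified DNA oligomer that pairs with its target RNA and recruits RNase H to cut it. It was taken up without a carrier (gymnosis), and the labelled time is 48 h in all 6 groups. Every library thus comes from cells given an oligonucleotide, and untreated cells were not analysed here. The labels do not say whether the replicates of a group came from separate cultures, so the p-values measure the spread between these libraries, which may be technical.

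NEAT1 (ENSG00000245532.11, chromosome 11, 65422774 to 65445540, hg38) went against the label in all 3 lines. Its level in CPM, the count scaled to a common library total, was 78.8, 81.7 and 94.6 in the AMO1 libraries labelled SCR and 493, 576 and 539 in those labelled gN1E. The libraries labelled H929 held 84.3, 75.9 and 83.5 CPM under SCR and 581, 482 and 564 CPM under gN1E. Those labelled LP1 held 122, 157 and 174 CPM under SCR and 605, 613 and 771 CPM under gN1E. The groups did not overlap in any line, and the log2 fold change of gN1E minus SCR was 2.66 (SE 0.074), 2.74 (SE 0.068) and 2.14 (SE 0.19). The sample names inside the deposited tables differ from the labels in 18 of 18 libraries, with SCR exchanged for gN1E and H929 for LP1. Libraries are therefore called by their label, and "higher" always means higher in the libraries labelled gN1E, which is the direction of NEAT1.

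The total count per library ran from 28061606 to 69937229. In AMO1 all 3 libraries labelled gN1E (28061606 to 49784737) were shallower than all 3 labelled SCR (53227560 to 66142827), and the part of this depth difference in the results was not tested. The 49 members took between 0.459% and 0.678% of the counts. All 8 plasma cell markers had a mean of 1 CPM or more in each group. Their summed level ran from 12400 to 14500 CPM in AMO1 and from 7120 to 7650 CPM in LP1, with overlapping groups, and in H929 it was 14600 to 15500 CPM under SCR and 16400 to 17600 CPM under gN1E, with no overlap. Of 3 markers each, CD3D and CD2 of T cells, LYZ and CD14 of monocytes, COL1A2 and COL3A1 of fibroblasts, CDH5 and VWF of endothelium and EPCAM of epithelium were under 1 CPM in every library. The remaining markers were detected in part. With CD3E the T cell sum was 7.4 to 24.9 CPM over all libraries, the fibroblast sum was 0.692 to 1.74 CPM, and the monocyte sum was 0.136 to 0.545 CPM in AMO1 and H929. In LP1, 4 sums were lower under gN1E with no overlap. The T cell sum was 10.1 to 13.7 against 13.9 to 15.1 CPM, the monocyte sum (through CSF1R) 3.52 to 6.1 against 6.94 to 9.56 CPM, the endothelium sum (through PECAM1) 301 to 315 against 331 to 341 CPM, and the epithelium sum 36.4 to 39.4 against 42.1 to 43.9 CPM. The epithelium sum was also lower in H929 (11.4 to 12.4 against 12.7 to 15.7 CPM), and in AMO1 the groups of all these lists overlapped. The part of these sums in the member changes was not tested.

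Before S phase, the origin recognition complex ORC marks origins, and CDC6 and CDT1 load rings of MCM2 to MCM7 onto them. Geminin (GMNN) prevents a further round of loading. The kinase CDC7 with DBF4, together with cyclin-dependent kinases, then lets CDC45 and the GINS complex turn the ring into the active helicase. DNA polymerase alpha with its primase starts each new strand, and PCNA, placed by the clamp loader RFC, holds polymerases delta and epsilon on DNA. Many of these genes are transcribed before and during S phase under the control of E2F factors, so that their RNA marks proliferating cells. In bulk libraries, fewer cells in S phase and less RNA per cell cannot be told apart.

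In AMO1, the members were mostly slightly higher in the libraries labelled gN1E, and 2 of the 49 passed the test, PRIM2 and POLA1, which encode the large primase subunit and the catalytic subunit of polymerase alpha. A gene was called where the adjusted p was under 0.05 in edgeR's quasi-likelihood test over all 22933 genes tested. This rule called 1.64% of all genes as higher and 0.419% as lower. All genes tested include many with far fewer counts than any member, so no share of all genes here is matched for level. Among genes with at least 1 CPM in 3 libraries, 352 of 14950 were called higher and 107 lower, and 2 members were called higher. The log2 fold change was above 0 for 40 of the 49 members, against 46.5% of all genes tested. The median was 0.095 over the members and -0.016 over all genes. The groups did not overlap for 17 members, of which 16 had every gN1E library above every SCR library and 1 (RFC2) the reverse. Over all genes, 9.48% were separated upwards and 8.29% downwards. The replicate letter was also used as a block. The labels do not say that letters pair libraries, and this pairing was read from correlations in the same data. With this block, 12 members were called higher and 0 lower, where the same fit called 3.38% of all genes higher and 2.69% lower. These 12 were PRIM2, POLA1, RFC3, RRM1, ORC3, RFC1, ORC1, CDC6, MCM6, MCM3, ORC6 and MCM10. With the span offset and the replicate block together, 11 members were called higher and 0 lower. That fit called 640 of the 22933 genes higher and 558 lower. POLA1, RFC1, RFC3 and MCM10 were then not among the members called, which left no clamp loader gene, and FEN1, MCM2 and TYMS were.

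In the libraries labelled H929, 5 members were called higher and 0 lower, where 3.7% of the 23499 genes tested were called higher and 1.77% lower. They were PRIM2, POLA1, ORC1, MCM5 and POLE. Among genes with at least 1 CPM in 3 libraries, 796 of 15325 were called higher and 452 lower, and 4 members were called higher. The log2 fold change was above 0 for 38 members, against 47.9% of all genes, with a median of 0.061 over the members and -0.01 over all genes. With 1 library left out, the member median ran from 0.041 to 0.098. Scaled by library size only, 30 members were above 0, and the medians were 0.015 and -0.055. For 17 members the groups were separated upwards and for 2 (ORC4 and PRIM1) downwards, against 11.3% and 10.7% of all genes. Leaving out SCR A brought the count of calls to 2, and leaving out gN1E B also gave 2. Over all genes, 529 of 23155 were called higher and 180 lower without SCR A, against 870 and 416 with all libraries. Without gN1E B, 536 of 23337 genes were called higher and 165 lower. Scaled by library size only, PRIM2 and POLA1 alone were called, and the adjusted p of ORC1, MCM5 and POLE was 0.165, 0.137 and 0.188.

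For the libraries labelled LP1, edgeR's quasi-likelihood test called 0 members in either direction, where 0.656% of the 23165 genes tested were called higher and 0.777% lower. At an unadjusted p under 0.05 it held 11 members and 3018 of all genes, and DESeq2 called 0 members. Among genes with at least 1 CPM in 3 libraries, edgeR called 134 of 14634 higher and 142 lower. The log2 fold change was above 0 for 38 members, against 49.7% of all genes, and the medians were 0.067 over the members and -0.001 over all genes. With 1 library left out, the member median ran from 0.045 to 0.102. The groups were separated upwards for 10 members and downwards for 1 (RFC2), against 9.14% and 8.93% of all genes. Without SCR D, 3 members were called, PRIM2 and LIG1 higher and CDT1 lower, where the same fit called 1.26% of all genes higher and 2.14% lower.

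**Figure D1:**
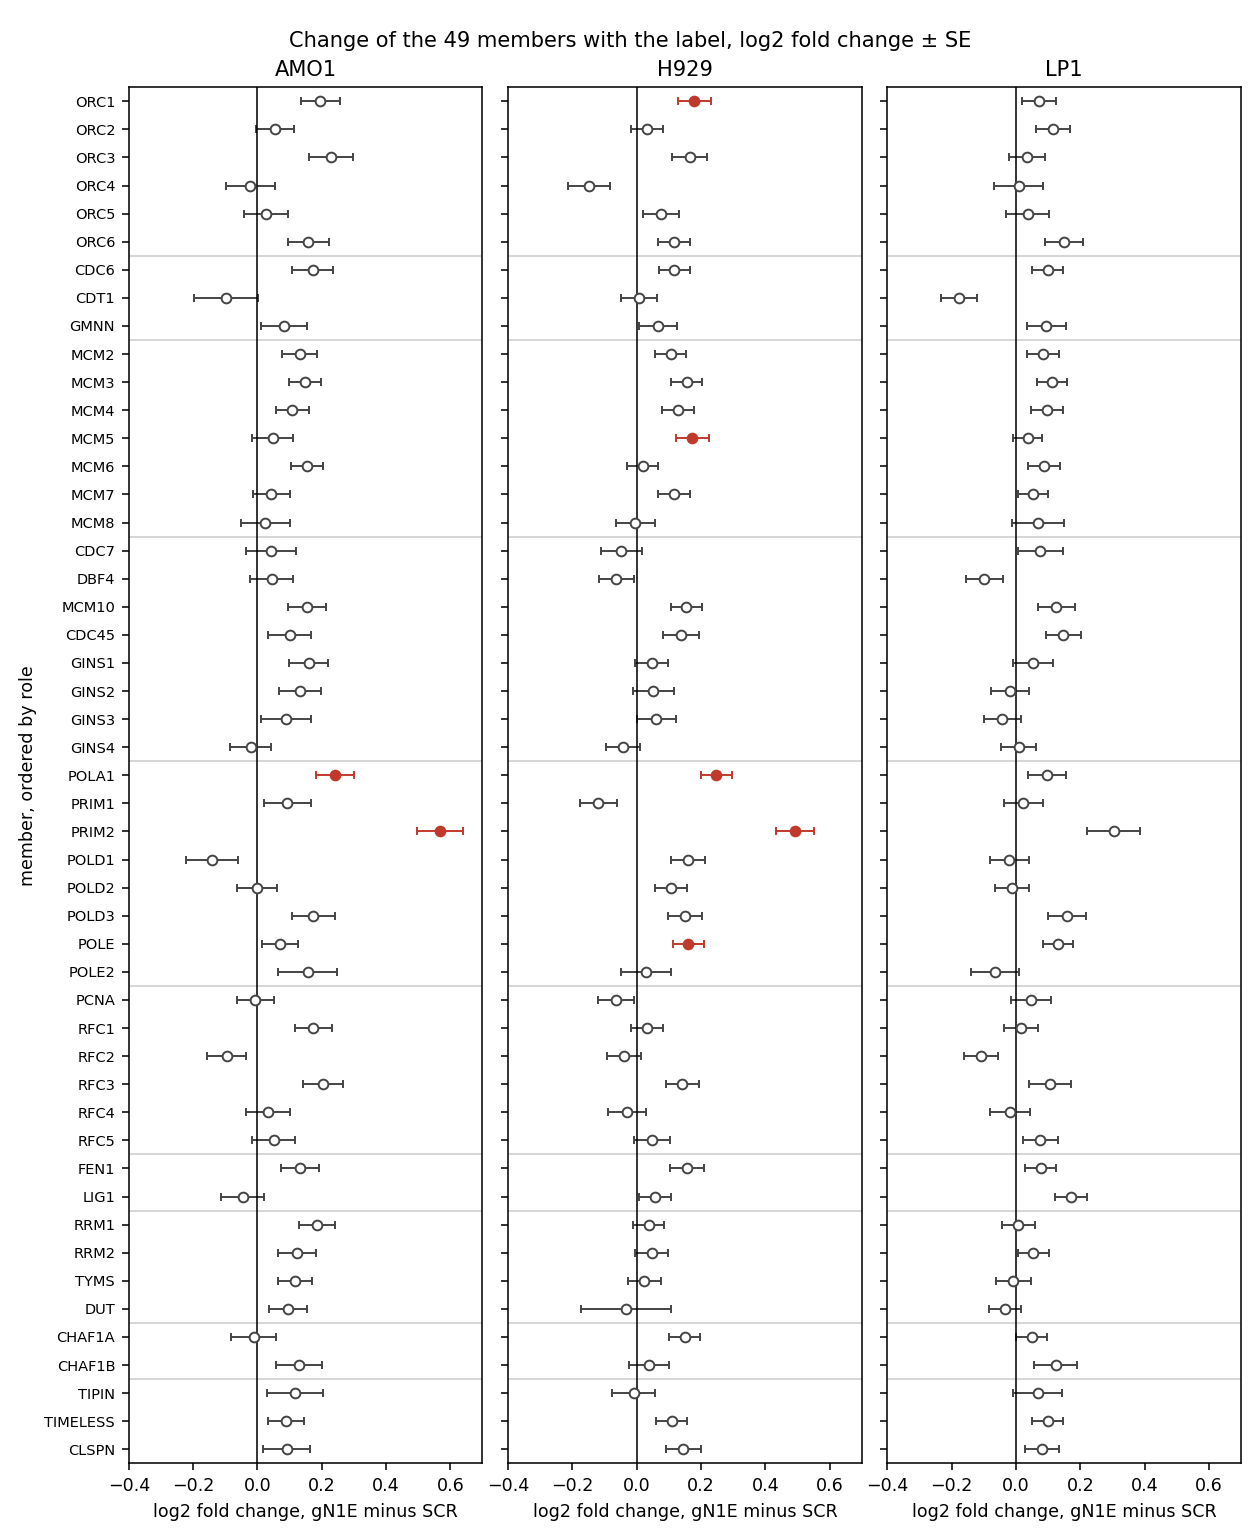
Log2 fold change of each of the 49 members (libraries labelled gN1E minus SCR) in the 3 lines, as points with bars of 1 standard error, ordered by role from origin recognition at the top to fork protection at the bottom. Filled red points are the 2 members called in AMO1 and the 5 called in the libraries labelled H929. Points lie to the right of 0 for 40, 38 and 38 members, and PRIM2 lies farthest to the right in each line.

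The direction was shared across the lines, which have no library in common. Of the 49 members, 29 (59.2%) were above 0 in all 3 lines, and RFC2 alone was below 0 in all 3. Among the 19934 genes tested in all 3 lines, 17.8% were above 0 in all 3 and 18.7% were below. The members are measured in the same libraries and many of them vary together with proliferation, so their signs are not independent of each other. MCM3, POLD3 and PRIM2 were the 3 members whose groups were separated upwards in every line, as were 1.71% of the genes tested in all 3.

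**Figure D2:**
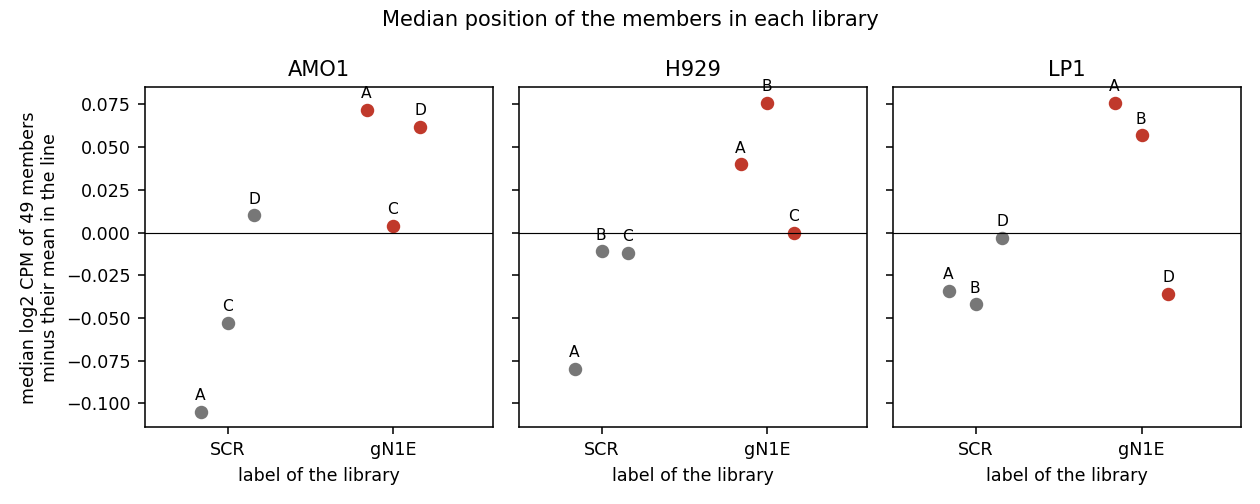
Median over the 49 members of the log2 CPM in a library minus the mean of its line, for each library by label, with the replicate letter beside each point. In H929 the 3 libraries labelled gN1E (0.04, 0.076 and 0) lie above the 3 labelled SCR. In AMO1, SCR D (0.01) lies above gN1E C (0.004), and in LP1, gN1E D (-0.036) lies below SCR A and D.

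Library by library, the median position of the members was not separated by label in every line. In AMO1 it was -0.105, -0.053 and 0.01 for SCR A, C and D, and 0.072, 0.004 and 0.062 for gN1E A, C and D. The libraries labelled H929 lay at -0.08, -0.011 and -0.012 for SCR A, B and C and at 0.04, 0.076 and 0 for gN1E A, B and C. Those labelled LP1 lay at -0.034, -0.042 and -0.003 for SCR A, B and D and at 0.076, 0.057 and -0.036 for gN1E A, B and D. The H929 groups did not overlap, SCR D overlapped with gN1E C in AMO1, where each gN1E library lay above the SCR library of its letter, and gN1E D lay within the SCR range in LP1.

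Of the 6 origin recognition genes, ORC1 was called in H929. Groups were separated upwards for 2 of the 6 in AMO1, 3 in H929 and 2 in LP1, against 9.48%, 11.3% and 9.14% of all genes. They were separated downwards for 1 (ORC4) in H929, against 10.7% of all genes. ORC1 (chromosome 1, 52372829 to 52404423, minus strand), the large ATPase subunit whose amount follows the cell cycle, held 54.3, 52.6 and 55.1 CPM in the AMO1 libraries labelled SCR and 60.7, 59.9 and 65.1 CPM in those labelled gN1E. In the libraries labelled H929 it held 55.7, 56 and 56.8 CPM under SCR and 64.8, 64 and 62 CPM under gN1E. Under the label LP1, 48.3, 49.2 and 50.9 CPM stood against 53.6, 53.5 and 48.7 CPM. The groups were separated in AMO1 and H929 and overlapped in LP1 through gN1E D. The log2 fold change was 0.20 (SE 0.062, adjusted p = 0.135, and 0.0179 with the replicate block) in AMO1, 0.18 (SE 0.051, adjusted p = 0.0366) in H929 and 0.07 (SE 0.054, adjusted p = 0.627) in LP1. The H929 call was lost without SCR A, without SCR B, without gN1E A and without gN1E B, where the adjusted p was 0.152, 0.0836, 0.115 and 0.129.

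ORC3, a subunit of the ORC core, had the largest log2 fold change among the uncalled members in AMO1. Its level there was 41, 44.2 and 42.1 CPM under SCR and 48, 53.6 and 47.6 CPM under gN1E, with no overlap, and the log2 fold change was 0.23 (SE 0.068, adjusted p = 0.107, and 0.00754 with the replicate block). In H929 the groups were also separated, with a log2 fold change of 0.165 (SE 0.055, adjusted p = 0.0828). In LP1 they overlapped, and the value was 0.03 (SE 0.057). ORC6, the smallest subunit, had 0.16, 0.12 and 0.15 in AMO1, H929 and LP1, and its groups were separated in H929 and LP1. In AMO1 its adjusted p was 0.302, and 0.0307 with the replicate block. ORC2 and ORC5 lay between 0.03 and 0.11 in the 3 lines, and ORC4 at -0.02, -0.15 and 0.01.

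The promoter window of ORC1 is shown because ORC1 is one of the called members and its letters can be set against those of the others. Windows are those of RefSeq (GRCh38.p14), from 250 bases before to 50 bases after the start site, written 5′ to 3′ on the strand of the gene. Capitals mark the letters of CCAAT, or of the E2F-like words TTTGGCGC, TTTGGCGG and TTTCCCGC, on either strand. The ORC1 window, chr1:52404374-52404673 on the minus strand, holds CCAAT on the opposite strand, starting 23 bases before the start site.
ORC1: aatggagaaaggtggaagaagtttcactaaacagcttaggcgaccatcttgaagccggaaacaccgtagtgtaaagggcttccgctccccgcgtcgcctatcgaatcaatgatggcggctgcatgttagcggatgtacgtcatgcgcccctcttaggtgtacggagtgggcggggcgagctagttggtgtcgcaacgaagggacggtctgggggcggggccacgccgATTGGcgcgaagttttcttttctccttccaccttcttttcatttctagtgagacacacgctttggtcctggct

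Of the licensing factors, CDC6 rose in AMO1 under the replicate block, and CDT1 and GMNN were not called there. CDC6 (chromosome 17, 40287879 to 40304657, plus strand), the ATPase that brings MCM rings to ORC, held 119, 132 and 142 CPM under SCR and 152, 140 and 151 CPM under gN1E in AMO1. The groups overlapped there because SCR D lay above gN1E C. With the letters paired, each gN1E library lay above the SCR library of its letter, and the log2 fold change was 0.17 (SE 0.064, adjusted p = 0.243, and 0.0183 with the replicate block). In the libraries labelled H929 (123, 121 and 128 CPM against 134, 139 and 129 CPM) and LP1 (110, 112 and 114 CPM against 124, 121 and 115 CPM) the groups were separated. The log2 fold changes there were 0.12 (SE 0.048, adjusted p = 0.182) and 0.10 (SE 0.048, adjusted p = 0.388).

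CDT1, which loads the MCM ring together with CDC6, held 196, 205 and 173 CPM under SCR and 167, 178 and 163 CPM under gN1E in the libraries labelled LP1, where SCR D lay within the gN1E range. Its log2 fold change was -0.18 (SE 0.057, adjusted p = 0.15) in LP1, -0.10 (SE 0.1) in AMO1 and 0.01 (SE 0.055) in H929. Without SCR D the LP1 value was -0.24 with an adjusted p of 0.00624. GMNN, the inhibitor of CDT1, stood at 0.08, 0.07 and 0.09 in AMO1, H929 and LP1, with overlapping groups in each.

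The CDC6 window, chr17:40287629-40287928 on the plus strand, is shown because it holds 5 matches, among them TTTGGCGG starting 28 bases before the start site. The other 4 are TTTGGCGC and 3 of CCAAT.
CDC6: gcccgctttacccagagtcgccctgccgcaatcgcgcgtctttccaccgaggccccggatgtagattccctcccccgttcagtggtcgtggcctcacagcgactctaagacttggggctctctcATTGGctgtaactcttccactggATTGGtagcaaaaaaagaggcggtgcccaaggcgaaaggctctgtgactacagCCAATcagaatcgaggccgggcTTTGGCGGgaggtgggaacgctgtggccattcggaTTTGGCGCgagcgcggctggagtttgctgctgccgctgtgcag

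The 6 subunits of the MCM ring were above 0 in all 3 lines, in 18 of 18 values, with an exception for MCM6 in H929, which stood at -0.03 when scaled by library size only and at -0.01 without gN1E B. MCM5 in AMO1 stood at -0.001 without SCR C. Of the 18 values, MCM5 in the libraries labelled H929 was the only call in edgeR's test without a block. MCM5 (chromosome 22, 35400134 to 35425431) held 217, 237 and 206 CPM under SCR and 247, 258 and 240 CPM under gN1E there, with no overlap. Its log2 fold change was 0.17 (SE 0.052, adjusted p = 0.0462), against 0.05 (SE 0.063) in AMO1 and 0.04 (SE 0.045) in LP1, where the groups overlapped. The adjusted p in H929 was 0.201 without SCR A, 0.188 without SCR C, 0.0778 without gN1E A and 0.23 without gN1E B. It was 0.0693 with limma-voom, 0.0519 with DESeq2, 0.0522 with a filter at 1 CPM and 0.068 in the joint fit, and the call held in 7 of 16 alternatives.

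MCM3 was the ring subunit whose groups were separated in every line. It held 271, 271 and 275 CPM under SCR and 311, 296 and 299 CPM under gN1E in AMO1. The libraries labelled H929 held 270, 285 and 281 CPM against 302, 328 and 302 CPM, and those labelled LP1 227, 223 and 224 CPM against 252, 245 and 232 CPM. The lowest gN1E library was thus above the highest SCR library in all 3 lines. The log2 fold changes were 0.15 (SE 0.050, adjusted p = 0.181, and 0.0282 with the replicate block) in AMO1, 0.155 (SE 0.048, adjusted p = 0.0551) in H929 and 0.11 (SE 0.047, adjusted p = 0.29) in LP1. In H929, MCM3 was called in 4 of 16 alternatives, among them DESeq2 (adjusted p = 0.0456) and the joint fit (adjusted p = 0.0395).

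MCM6 (chromosome 2, 135839626 to 135876443, minus strand) was separated in AMO1 alone, where 215, 222 and 218 CPM under SCR stood against 240, 245 and 244 CPM under gN1E. The log2 fold change was 0.155 (SE 0.050, adjusted p = 0.156, and 0.0211 with the replicate block), against 0.02 in H929 and 0.09 in LP1. MCM2 had 0.13, 0.105 and 0.08, MCM4 had 0.11, 0.13 and 0.10, and MCM7 had 0.04, 0.115 and 0.05 in AMO1, H929 and LP1, and the lowest adjusted p among these 9 values was 0.158. MCM8, which works outside the ring, stood at 0.025, -0.004 and 0.07. The values of the 6 ring subunits thus lay within 0.02 and 0.17 on the log2 scale, close to each other and small beside the change of NEAT1.

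The MCM6 window, chr2:135876394-135876693 on the minus strand, is shown because it holds TTTGGCGC at 2 places, starting 152 and 90 bases before the start site, and CCAAT on the opposite strand at 2 more.
MCM6: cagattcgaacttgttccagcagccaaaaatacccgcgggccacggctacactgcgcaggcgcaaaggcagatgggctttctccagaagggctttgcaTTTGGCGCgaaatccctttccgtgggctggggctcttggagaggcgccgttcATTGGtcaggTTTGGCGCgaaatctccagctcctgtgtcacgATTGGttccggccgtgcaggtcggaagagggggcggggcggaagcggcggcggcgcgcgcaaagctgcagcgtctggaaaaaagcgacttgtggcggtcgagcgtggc

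The 8 genes of helicase activation had medians of 0.095, 0.049 and 0.03 in AMO1, H929 and LP1, and none was called in edgeR's test, with 2 of 8 at an unadjusted p under 0.05 in each line, where 2803 of 22933, 4156 of 23499 and 3018 of 23165 genes were. MCM10, which holds the active helicase to DNA, had log2 fold changes of 0.15 (SE 0.058, adjusted p = 0.254, and 0.0361 with the replicate block), 0.15 (SE 0.049, adjusted p = 0.0646) and 0.125 (SE 0.058, adjusted p = 0.354). Its groups were separated in AMO1 and H929. CDC45, the helicase cofactor, had 0.10, 0.14 and 0.15, and its groups were separated in LP1, where 43.1, 43.2 and 46.4 CPM stood against 50.8, 49.4 and 46.5 CPM. The kinase subunits CDC7 and DBF4 had signs that differed between lines, with 0.04, -0.05 and 0.075 for CDC7 and 0.04, -0.06 and -0.10 for DBF4. GINS1 to GINS4 lay between -0.04 and 0.16.

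The largest change of any member was that of PRIM2. PRIM2 (chromosome 6, 57314805 to 57646850, plus strand), the large subunit of primase that helps to make the RNA primer of each fragment, held 21.2, 21.5 and 22.1 CPM under SCR and 31.4, 31.3 and 33.5 CPM under gN1E in AMO1. In the libraries labelled H929 it held 21.4, 22.6 and 22.1 CPM against 30.7, 30.6 and 31.6 CPM. In those labelled LP1 it held 13.6, 12.4 and 15.5 CPM against 17.7, 17 and 16.6 CPM. The groups did not overlap in any line, and the gap was narrowest in LP1, between SCR D and gN1E D. The log2 fold change was 0.57 (SE 0.071, adjusted p = 3.98e-05) in AMO1, 0.49 (SE 0.06, adjusted p = 1.42e-06) in H929 and 0.30 (SE 0.083, adjusted p = 0.0729) in LP1. At an adjusted p under 0.05 it stayed called under all 16 alternatives in AMO1 and all 16 in H929, with the highest adjusted p at 0.00119 and 0.000939, and its fold was under the 1.5-fold rule in both lines, which called 0 members. In LP1 it was called under 4 of 16, and without SCR D the value was 0.39 with an adjusted p of 0.00726. The near copy PRIM2BP held between 0 and 5 counts per library.

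The other primase subunit did not follow. PRIM1, the catalytic subunit, had a log2 fold change of 0.09 (SE 0.073) in AMO1, -0.12 (SE 0.057, adjusted p = 0.268) in H929 and 0.02 (SE 0.06) in LP1. In H929 the groups were separated downwards, with 41.8, 41.3 and 44.6 CPM under SCR and 40.5, 37.3 and 39.7 CPM under gN1E.

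POLA1 (chromosome X, 24693873 to 24996986, plus strand), the catalytic subunit of polymerase alpha, extends the primer. It held 114, 130 and 123 CPM under SCR and 141, 143 and 151 CPM under gN1E in AMO1, and 102, 105 and 110 CPM against 127, 123 and 125 CPM in the libraries labelled H929. In those labelled LP1, 65.6, 61.4 and 70.5 CPM stood against 75.6, 68.4 and 67 CPM. The groups were separated in AMO1 and H929, and in LP1 SCR D lay above gN1E B and D. The log2 fold change was 0.24 (SE 0.059, adjusted p = 0.0322, and 0.00026 with the replicate block), 0.25 (SE 0.048, adjusted p = 0.0013) and 0.10 (SE 0.059, adjusted p = 0.521). The AMO1 call was lost without SCR A, SCR D, gN1E C or gN1E D, with adjusted p of 0.115, 0.127, 0.108 and 0.264, and also under library size only (0.0924) and limma-voom (0.0603), while the H929 call was kept with any 1 library left out.

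**Figure D3:**
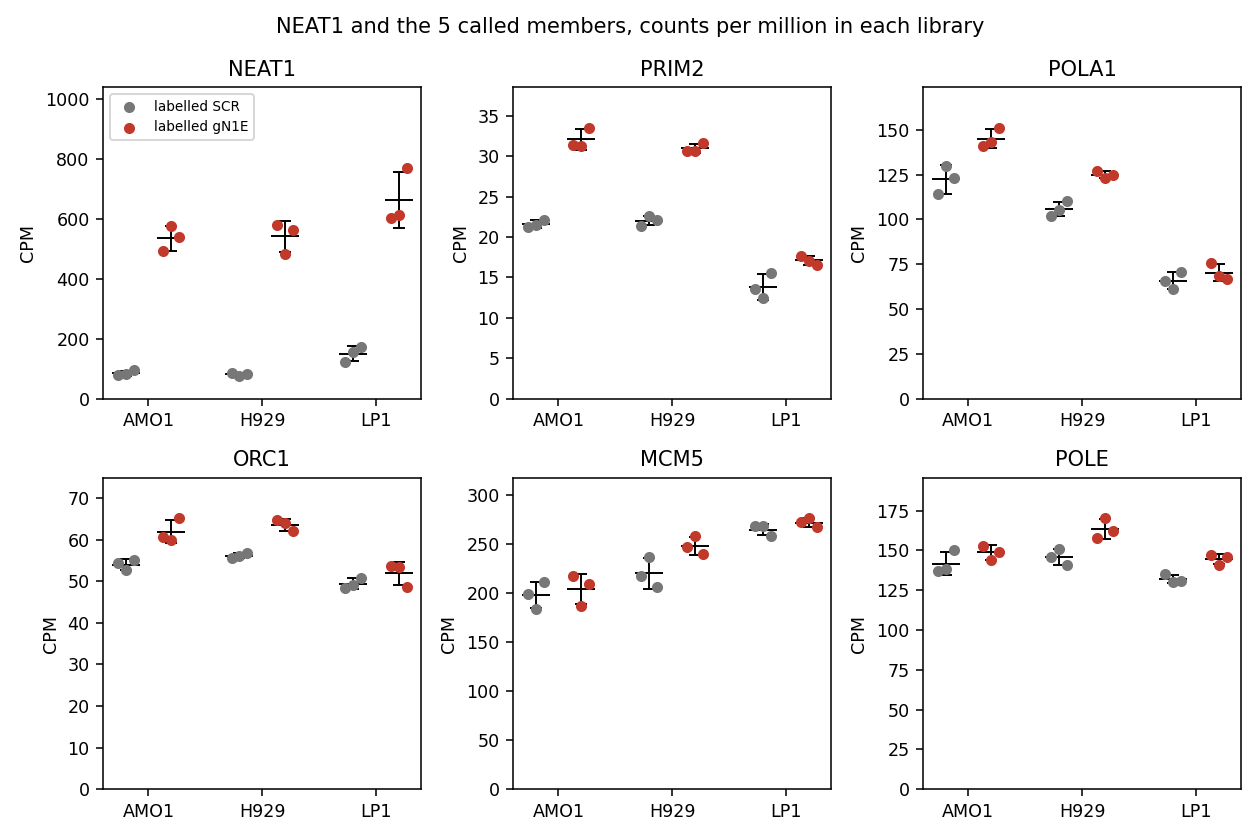
CPM (scaled within each line) of NEAT1 and of the 5 called members in each of the 18 libraries, by line and label, with the mean as a bar and 1 SD as whiskers (n = 3). NEAT1 is several-fold higher under gN1E in every line. PRIM2 is the member with the largest change relative to its level (21.2 to 22.1 CPM against 31.3 to 33.5 CPM in AMO1). The other 4 members differ by a small part of their level.

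POLE (chromosome 12, 132623753 to 132687376, minus strand), the catalytic subunit of polymerase epsilon on the leading strand, held 146, 151 and 141 CPM under SCR and 158, 170 and 162 CPM under gN1E in the libraries labelled H929. In those labelled LP1 it held 135, 130 and 131 CPM against 147, 141 and 146 CPM. The groups were separated in both, and overlapped in AMO1 through SCR D (150 CPM). The log2 fold change was 0.16 (SE 0.048, adjusted p = 0.0472) in H929, 0.13 (SE 0.046, adjusted p = 0.193) in LP1 and 0.07 (SE 0.056) in AMO1. The H929 call was lost without SCR A, SCR C, gN1E B or gN1E C, with adjusted p of 0.165, 0.129, 0.246 and 0.082, and with limma-voom (0.0674).

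The subunits of polymerase delta, the lagging strand enzyme, differed among themselves. POLD3, a regulatory subunit, was separated upwards in all 3 lines, with 44.2, 49.9 and 47.2 CPM against 51.9, 52.3 and 55.3 CPM in AMO1 and log2 fold changes of 0.17 (SE 0.066, adjusted p = 0.257), 0.15 (SE 0.054, adjusted p = 0.113) and 0.16 (SE 0.058, adjusted p = 0.216). POLD1, the catalytic subunit, had -0.14 (SE 0.08, adjusted p = 0.516) in AMO1 and 0.16 (SE 0.053, adjusted p = 0.0828) in H929, with overlapping groups in both, and -0.02 in LP1. The H929 value of POLD1 was 0.22 without gN1E A, with an adjusted p of 0.0106. POLD2 had -0.002, 0.11 and -0.01 in AMO1, H929 and LP1, and POLE2 had 0.16, 0.03 and -0.07.

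The windows of PRIM2, POLA1 and POLE, the called polymerase and primase genes, are set side by side. The POLA1 window, chrX:24693668-24693967 on the plus strand, holds TTTGGCGC on the opposite strand, starting 137 bases before the start site, and CCAAT. The POLE window, chr12:132687293-132687592 on the minus strand, holds CCAAT on either strand in overlapping letters and TTTGGCGC on the opposite strand, starting 18 bases before the start site. The PRIM2 window, chr6:57317380-57317679 on the plus strand, and a further RefSeq window of PRIM2, chr6:57314555-57314854, hold none of the 4 words.
PRIM2: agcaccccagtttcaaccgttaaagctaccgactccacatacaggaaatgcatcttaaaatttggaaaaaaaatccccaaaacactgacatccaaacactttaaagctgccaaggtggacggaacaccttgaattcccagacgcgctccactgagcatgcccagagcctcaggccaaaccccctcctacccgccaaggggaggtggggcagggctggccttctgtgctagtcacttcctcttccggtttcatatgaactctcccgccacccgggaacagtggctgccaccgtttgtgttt
POLA1: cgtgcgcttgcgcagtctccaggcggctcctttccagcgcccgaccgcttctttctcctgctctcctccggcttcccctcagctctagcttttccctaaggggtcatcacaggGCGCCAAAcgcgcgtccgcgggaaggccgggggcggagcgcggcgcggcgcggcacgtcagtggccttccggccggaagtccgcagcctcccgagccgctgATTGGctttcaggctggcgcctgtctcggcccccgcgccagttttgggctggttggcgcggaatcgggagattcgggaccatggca
POLE: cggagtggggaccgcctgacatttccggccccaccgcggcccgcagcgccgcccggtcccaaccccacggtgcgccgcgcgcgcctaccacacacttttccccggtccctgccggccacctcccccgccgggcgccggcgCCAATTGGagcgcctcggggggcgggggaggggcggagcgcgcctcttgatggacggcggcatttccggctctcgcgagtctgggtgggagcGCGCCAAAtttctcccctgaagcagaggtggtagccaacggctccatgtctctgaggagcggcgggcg

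The sliding clamp was not called in any line. PCNA held 199, 224 and 208 CPM under SCR and 211, 202 and 216 CPM under gN1E in AMO1, and its log2 fold changes were -0.01 (SE 0.056), -0.06 (SE 0.055) and 0.05 (SE 0.062) in AMO1, H929 and LP1, with overlapping groups. The clamp loader subunits differed in sign. RFC3 held 85.8, 97.1 and 99.4 CPM under SCR and 109, 104 and 112 CPM under gN1E in AMO1, and had 0.20 (SE 0.063, adjusted p = 0.123, and 0.00495 with the replicate block), 0.14 (SE 0.051, adjusted p = 0.114) and 0.105 (SE 0.065). The H929 value of RFC3 was 0.18 with an adjusted p of 0.0384 without SCR C. RFC1, the large subunit, had 0.17 (SE 0.057, adjusted p = 0.163, and 0.0167 with the replicate block) in AMO1, 0.03 in H929 and 0.015 in LP1.

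RFC2 went the other way in each line, with -0.10 (SE 0.061), -0.04 (SE 0.053) and -0.11 (SE 0.053, adjusted p = 0.387). In the libraries labelled LP1 it held 36.6, 36.5 and 36.1 CPM under SCR and 33.4, 34.2 and 33.7 CPM under gN1E, with no overlap. RFC4 and RFC5 lay between -0.03 and 0.075.

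Of the genes that join Okazaki fragments, LIG1, the ligase, had its largest value in the libraries labelled LP1, where 57.2, 60.1 and 62 CPM under SCR stood against 67.5, 67.5 and 66.8 CPM under gN1E. The log2 fold change was 0.17 (SE 0.05, adjusted p = 0.103), and 0.20 with an adjusted p of 0.0293 without SCR D. It was -0.045 in AMO1 and 0.06 in H929, with overlapping groups. FEN1, the flap nuclease, had 0.13 (SE 0.059, adjusted p = 0.362), 0.155 (SE 0.053, adjusted p = 0.0963) and 0.08 (SE 0.048), also with overlapping groups. The H929 value of FEN1 was 0.20 with an adjusted p of 0.0259 without gN1E C.

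The nucleotide supply genes had their largest changes in AMO1, where 3 of 4 had groups separated upwards, against 9.48% of all genes. RRM1, the large subunit of ribonucleotide reductase, held 145, 162 and 150 CPM under SCR and 171, 171 and 177 CPM under gN1E there, with no overlap and a log2 fold change of 0.185 (SE 0.056, adjusted p = 0.116, and 0.00633 with the replicate block). Without SCR C the AMO1 value of RRM1 was 0.24 with an adjusted p of 0.0278. In H929 and LP1 it was 0.04 (SE 0.049) and 0.01 (SE 0.051). RRM2, the small subunit, held 625, 670 and 719 CPM under SCR and 752, 678 and 763 CPM under gN1E in AMO1, and the groups overlapped. The log2 fold changes of RRM2 were 0.12 (SE 0.06), 0.05 (SE 0.051) and 0.05 (SE 0.049). TYMS and DUT, which make and guard the thymidine supply, had 0.12 and 0.095 in AMO1, and between -0.03 and 0.02 in H929 and LP1.

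The chromatin assembly genes CHAF1A and CHAF1B, which place histones behind the fork, had -0.01 and 0.13 in AMO1, 0.15 and 0.04 in H929 and 0.05 and 0.12 in LP1. The lowest adjusted p among these was 0.0724, for CHAF1A in H929. The fork protection genes were above 0 in 8 of 9 values. CLSPN, which carries the checkpoint signal from the fork, had 0.09 (SE 0.074), 0.145 (SE 0.054, adjusted p = 0.131) and 0.08 (SE 0.053), and was separated in H929 (70.7, 78.4 and 79.9 CPM against 86.5, 85.5 and 81.1 CPM). TIMELESS had 0.09, 0.11 and 0.10, with separated groups in H929 and LP1, and its partner TIPIN had 0.12, -0.01 and 0.07.

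Genes outside the 49 that act in replication or in entry to S phase were read from a list of 43 partners. None was called by edgeR in AMO1 or LP1. At an unadjusted p under 0.05 it held 16 in AMO1, where it held 2803 of all 22933 genes, and 6 in LP1, where it held 3018 of all 23165 genes, a share close to that of the partners. With the replicate block, 8 were called higher in AMO1, against the 3.38% of all genes given above. The span offset and the block together called 3 partners higher and 0 lower, and 640 of all 22933 genes higher and 558 lower. In H929, 6 were called higher and 1 lower, against the 3.7% and 1.77% of all genes given above. Scaled by library size only, 0 were called higher and 1 lower. The largest were RRM2B, the ribonucleotide reductase subunit induced by p53, at -0.26 (SE 0.059, adjusted p = 0.00619), and E2F7, a repressor of the E2F family, at 0.24 (SE 0.059, adjusted p = 0.0143). CDK2 and CCNE1, the kinase and cyclin of S phase entry, had 0.22 (SE 0.052, adjusted p = 0.0108) and 0.20 (SE 0.057, adjusted p = 0.0358). In H929, 1 partner was called without SCR A, 4 without SCR B and 1 without gN1E B. Over all genes, the same fits called 529, 862 and 536 higher and 180, 410 and 165 lower, in that order. The median of the partners was 0.108, 0.03 and 0.016 in AMO1, H929 and LP1.

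Beside the members, a list of 14 genes of mitosis was read. All 14 mitosis genes were below 0 in LP1, with a median of -0.112, and 6 of them were separated downwards, where 49.7% of all genes were above 0 and 8.93% were separated downwards. In AMO1 and H929, 10 and 8 of the 14 were above 0, with medians of 0.083 and 0.012. The only call among them was CDK1, the kinase of mitotic entry, lower in H929 at -0.20 (SE 0.055, adjusted p = 0.0271), named after its value was seen. In LP1, edgeR called 0 of the 14 (6 at an unadjusted p under 0.05, against 3018 of all 23165 genes). The difference between these genes and the members was not tested.

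No member was shown to respond differently between the lines. In the joint fit of the 18 libraries, edgeR's interaction test called 0 of 49 members for AMO1 against LP1, 0 for H929 against LP1 and 0 for AMO1 against H929, and DESeq2 also called 0 for each. At an unadjusted p under 0.05 the edgeR test held 6, 3 and 3 members, against 10.7%, 10.1% and 6.7% of all genes. Over all 26436 genes it called 0.741%, 0.874% and 0%. The difference in log2 fold change for PRIM2 was 0.28 (SE 0.098, adjusted p = 0.23) between AMO1 and LP1 and 0.22 (SE 0.098, adjusted p = 0.421) between H929 and LP1. The largest in size was that of POLD1 between AMO1 and H929, at -0.315 (SE 0.11, adjusted p = 0.672). NEAT1 itself differed by 0.54 (SE 0.18, adjusted p = 0.278) between AMO1 and LP1 and by 0.64 (SE 0.18, adjusted p = 0.197) between H929 and LP1. The SE of these differences are of the size of the changes of most members, so the 0 calls do not show that the responses are equal.

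**Figure D4:**
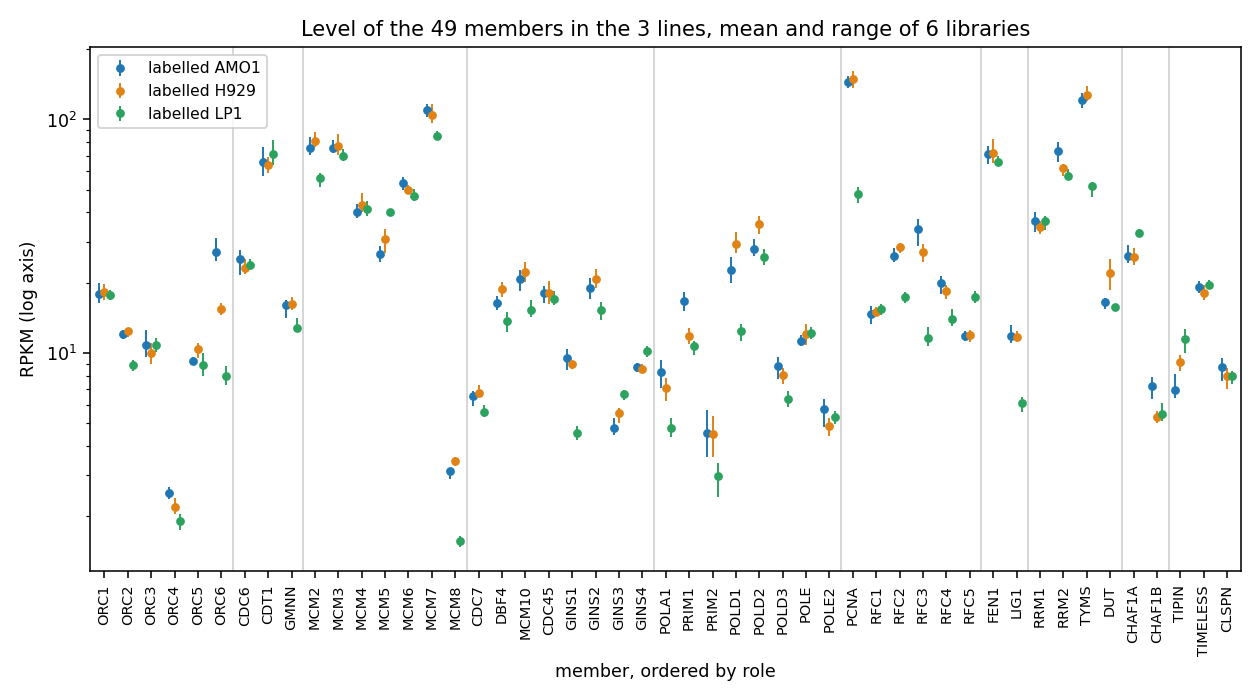
Level of the 49 members in each line as RPKM on a log axis, ordered by role, with the mean as a point and the range of 6 libraries (3 of each label) as a line. PCNA and TYMS stand highest in AMO1 and H929 and lower in LP1, and ORC6 falls from AMO1 through H929 to LP1.

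Many members differed in level between the lines. Levels per kb of exon and per library total (RPKM, scaled over the 18 libraries) were averaged over both labels. The SD given with n = 6 therefore includes the difference between the labels, which is largest for PRIM2 among the members. Of 49 members, 37 differed between AMO1 and LP1 (30 higher and 7 lower in AMO1), where 75.9% of all genes were called in either direction. Between H929 and LP1, 41 differed (30 higher and 11 lower in H929), against 74.6% of all genes. Between AMO1 and H929, 29 differed (15 higher and 14 lower in AMO1), against 44.4%. The first of these shares is close to that of all genes. With a difference of at least 1.5-fold asked for as well, 14, 9 and 1 members remained, against 56.5%, 53% and 17.1% of all genes. Scaled by library size only, the median over all genes moved from 0.022 to 0.202 for AMO1 against LP1 and from 0.053 to 0.243 for H929 against LP1. The H929 split against LP1 then became 39 higher and 4 lower, and the AMO1 split 41 and 5.

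The most abundant members per length were PCNA at 144 ± 6.26 RPKM (SD, n = 6), TYMS at 121 ± 6.5 and MCM7 at 110 ± 5.52 in AMO1. In H929 the same 3 led, with 149 ± 9.65, 127 ± 6.81 and 105 ± 6.93 RPKM. In LP1, MCM7 led with 85.3 ± 2.94 RPKM, followed by CDT1 at 71.3 ± 7.38 and MCM3 at 69.9 ± 3.31, which do not differ beyond their spread, while PCNA stood at 47.8 ± 3.32 and TYMS at 51.7 ± 2.72. The least abundant per length were ORC4 in AMO1 (2.51 ± 0.105 RPKM) and H929 (2.19 ± 0.129), and MCM8 in LP1 (1.57 ± 0.0647). The length counts all annotated exons, 1403 bases for PCNA and 9153 for RRM2, so this order depends on the annotation. In AMO1, RRM2 held a mean of 671 CPM under SCR and 731 CPM under gN1E, and PCNA 210 CPM under both. In CPM, POLE2 lay below ORC4 in AMO1 (16.7 against 23.5 under SCR) and H929 (14.8 against 21.5 under SCR).

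ORC6 differed most between AMO1 and LP1, with 27 ± 2.34 RPKM in AMO1, 15.4 ± 0.773 in H929 and 7.94 ± 0.515 in LP1 (SD, n = 6). Its log2 difference was 1.77 (SE 0.042, adjusted p = 3.01e-28) between AMO1 and LP1 and 0.82 (SE 0.04, adjusted p = 4.9e-18) between AMO1 and H929. PCNA differed by 1.59 (SE 0.047) and 1.64 (SE 0.047), RFC3 by 1.55 (SE 0.045) and 1.22 (SE 0.044) and TYMS by 1.23 (SE 0.04) and 1.30 (SE 0.04) for AMO1 and H929 against LP1. Members higher in LP1 than in AMO1 included TIPIN at -0.73 (SE 0.058), MCM5 at -0.60 (SE 0.041), RFC5 at -0.56 (SE 0.041) and GINS3 at -0.49 (SE 0.047). PRIM2 and POLA1 were also lower in LP1, where PRIM2 held 2.98 ± 0.373 RPKM against 4.56 ± 0.976 in AMO1 and 4.48 ± 0.854 in H929. ORC1 held 17.8 ± 1.43, 18.3 ± 1.36 and 17.7 ± 0.78 RPKM in AMO1, H929 and LP1, which do not differ beyond their spread.

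**Figure D5:**
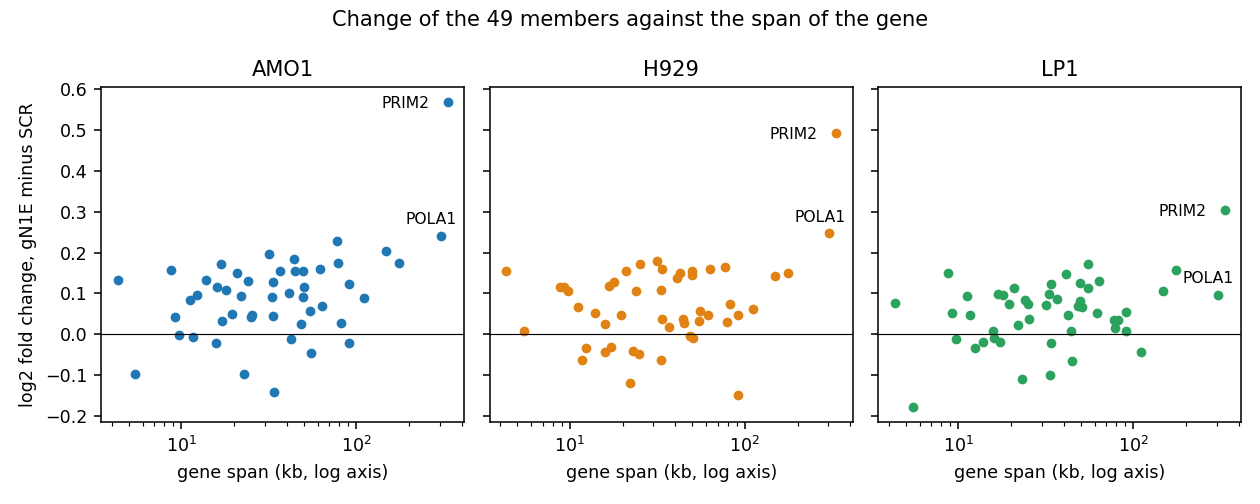
Log2 fold change of the 49 members (libraries labelled gN1E minus SCR) against the span of the gene in kb on a log axis, with a panel for each line. PRIM2 and POLA1 have the longest spans and stand at 0.57 and 0.24 in AMO1, 0.49 and 0.25 in H929 and 0.30 and 0.10 in LP1.

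The longest members had the largest changes in AMO1 and H929. PRIM2 and POLA1 span 332046 and 303114 bases, the longest of the members, whose median span is 33.6 kb. Span runs from the first to the last annotated base of a gene. By this measure GINS3 (111068 bases) is over 100 kb, although its RefSeq window (58392221 to 58392520) lies near its end at 58406147. Among the 5 members over 100 kb, the median log2 fold change was 0.204 in AMO1, 0.15 in H929 and 0.105 in LP1. Genes with a mean of at least 1 CPM and a span over 100 kb had medians of 0.063, 0.04 and 0.019 over all genes in these lines. The 5 members under 10 kb had medians of 0.043, 0.115 and 0.053, the 16 from 10 to 30 kb 0.088, 0.036 and 0.042, and the 23 from 30 to 100 kb 0.101, 0.047 and 0.067. The member medians thus rose through the classes in AMO1, and in H929 and LP1 they did not. Over all genes with a mean of at least 1 CPM, the medians also rose in AMO1, with -0.038, -0.021, 0.02 and 0.063. Those of all genes in H929 were -0.009, -0.006, -0.001 and 0.04, and those in LP1 were -0.012, -0.015, 0.002 and 0.019. With each library's trend with span taken out by an offset, PRIM2 had 0.46 (SE 0.07, adjusted p = 0.000349) in AMO1 and 0.40 (SE 0.059, adjusted p = 5.4e-05) in H929. POLA1 had 0.14 (SE 0.054, adjusted p = 0.247) and 0.16 (SE 0.046, adjusted p = 0.0422), so that its AMO1 call was lost.

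E2F-like letters were common in the promoters of the members. RefSeq windows were found for 45 of the 49 members, and MCM4, MCM5, GINS4 and POLD3 had none. At least 1 of TTTGGCGC, TTTGGCGG and TTTCCCGC, of which the first and the second differ only in their last letter, was found on either strand in 26 of 45 members (57.8%), against 3.5% of the 27305 genes in the table. TTTCCCGC was in 13 members (28.9% against 1.98%), TTTGGCGC in 10 (22.2% against 0.795%) and TTTGGCGG in 6 (13.3% against 0.809%). CCAAT was in 27 members (60% against 39.7%). Genes with several windows count once if any window holds the letters. A match is a description of the sequence and was not read as a site. Of the called members with a window, POLA1 and POLE hold an E2F-like word, and ORC1 and PRIM2 hold none in these windows.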

How the data were processed

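Libraries were TruSeq Stranded Total RNA. The authors aligned reads with STAR 2.7.10a to hg38 and counted read pairs per gene with featureCounts 1.6.4 on GENCODE release 43. Per the file headers, the deposited values are raw counts, counted by strand and without normalization. RefSeq and GENCODE names were matched by symbol. Libraries were grouped by their labels. The members and lists were chosen with earlier results of these data known.

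From the counts, log2 fold changes, their SE and Benjamini-Hochberg adjusted p-values were computed with edgeR 4.0.16 (TMM, robust quasi-likelihood, threshold 0.05) in R 4.3.3, per line, leaving out genes below 10 reads in all 6 of its libraries. With 3 against 3 libraries an exact test cannot give p under 0.1. Line differences came from a joint fit. The labels do not say that letters pair libraries. The deviations of same-letter libraries correlated at 0.234, 0.205 and 0.136 in AMO1, and those of gN1E D and SCR C at 0.11. The block in AMO1 rests on these values, taken from the same data. In H929 and LP1 the same-letter values were not above 0.1 for every letter. Alternatives were DESeq2 1.42.0, limma-voom (limma 3.58.1), other scalings and filters, a span offset, the replicate block, a joint fit, an adjusted p of 0.1 with 1.5-fold, and leaving out each library. The tests were checked on simulated data. Named were NEAT1, called members, in each line the 3 largest of the rest, MCM2 to MCM7, ORC1, CDC6, CDT1, GMNN, CDC45, PCNA, RRM2 and CLSPN as leading genes of their roles, and at most 4 called partners a line. Other members are named to complete a role, after their values were seen. Libraries of a group were compared for duplicates by counts, and all differed beyond sampling noise.

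Overlapping genes on the same strand (PRIM1 with NACA, FEN1 with FADS2, CHAF1B with MORC3, RFC3 and POLD3 with non-coding genes) and near copies (DBF4P1 with 81 to 201 counts per library) leave those members less certain. Figures were drawn with matplotlib 3.10.9.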

Additional observations from a re-analysis of the deposited data

How the results depend on the processing

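The median log2 fold change of the members stayed above 0 under every alternative run in all 3 lines. With library size only it was 0.015 in H929. With 1 library left out it ran from 0.078 to 0.133 in AMO1, from 0.041 to 0.098 in H929 and from 0.045 to 0.102 in LP1. Counts of called members moved more. In AMO1 the count was 2, with 1 under library size only, 1 with the span offset, 1 with limma-voom, 4 in the joint fit, 12 with the replicate block, 11 with the span offset and replicate block, and 0 when a change of 1.5-fold was asked for beside an adjusted p under 0.1. In H929, where same-letter libraries did not correlate above 0.1, the count was 5. It was 2 under library size only, 9 with no filter and 3 with limma-voom. With the replicate block in edgeR it was 3 (without ORC1, adjusted p 0.0821, and POLE, adjusted p 0.0702). It was 2 with the span offset and replicate block, and 0 at the 1.5-fold rule. In LP1 it was 0, with 1 under library size only, 2 with no filter (1 higher and 1 lower) and 1 in the joint fit. With 1 library left out the counts ran from 1 to 3, from 2 to 6 and from 0 to 3 in AMO1, H929 and LP1. The replicate block changed no call in LP1. Partners called in H929 numbered 7, and 3 with the replicate block (2 higher and 1 lower). Responses gave 0 members for each pair under RLE size factors, library size only, limma-voom, DESeq2, the replicate block and leave-one-out, and other filters and the span offset were not run for them. Levels differing at least 1.5-fold numbered 14 for AMO1 against LP1, 9 for H929 against LP1 and 1 (ORC6) for AMO1 against H929. No value past the threshold changed sign. The lowest count behind a member was 507.

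Library size only also moved the split of all genes, from 377 higher and 96 lower to 309 and 295 in AMO1, from 870 and 416 to 556 and 743 in H929, and from 152 and 180 to 229 and 130 in LP1. The members above 0 then numbered 37, 30 and 43, with medians of 0.056, 0.015 and 0.094 against -0.054, -0.055 and 0.027 over all genes. The cause of these differences was not tested.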
